A study of Mus musculus with 6 samples.

Results

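The genes of the heterogeneous nuclear ribonucleoproteins (hnRNPs) considered here were Hnrnpa1, Hnrnpa2b1, Hnrnpc, Hnrnpd, Hnrnpf, Hnrnph1, Hnrnpk, Hnrnpl, Hnrnpm and Hnrnpu. They were chosen by name, with earlier results of these data known but by a rule that uses no measured value, as 10 of the 42450 genes listed in the count table. All 10 passed the filter on low counts. Total RNA was compared between mouse embryonic stem cells (mESCs) of the male line E14tg2a.4 (WT) and cells of the same line with a heterozygous truncation of Srrm2 (Srrm2+/-), with 3 libraries per genotype. The study asked what a reduced dose of Srrm2 does to pluripotent cells. The Srrm2+/- cells are a single gene-trap clone, CG0630. Both groups were grown on gelatin in medium with LIF, the cytokine that sustains self-renewal, and were moved to serum-free ESGRO medium with LIF before collection. The labels name more than a single length for that last step over the whole series, and the study's methods give a common length of growth after seeding for the total RNA libraries of both genotypes. Replicates were cultures from 3 separately frozen batches of each line at different passages. The WT cultures were at higher passage than the Srrm2+/- cultures, so that genotype, clone and passage cannot be told apart.

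HnRNPs are RNA-binding proteins that coat nascent pre-mRNA in the nucleus and take part in splicing, polyadenylation, export, translation and decay of mRNA. Many of them bind silencer elements in exons and introns and keep splice sites from being used, often against the serine- and arginine-rich (SR) proteins, the class of factor to which the nuclear speckle protein encoded by Srrm2 is related. Several hnRNP genes adjust their own mRNA level through alternative exons that send the transcript to nonsense-mediated decay, and in pluripotent cells their protein products are abundant.

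Each library held 54151532 to 69933465 estimated counts. Values below are CPM (the counts of a gene relative to the library total) after TMM normalization, a scaling of library sizes, and a gene was called upregulated or downregulated in Srrm2+/- at an edgeR adj. P-value under 0.05. Srrm2 gave 91.2, 98.3 and 97.7 CPM in the WT libraries and 62.3, 56.2 and 59.6 CPM in the Srrm2+/- libraries. Its log2 fold change was -0.69 (SE 0.05, edgeR adj. P-value 2.38e-05), in the direction of the labels. Of 8 embryonic stem cell markers, all were expressed, with a summed level of 4199 to 4311 CPM in WT and 3600 to 3693 CPM in Srrm2+/-, where 5 were called lower and 1 higher. Summed levels were 3.10 to 3.29 against 6.20 to 9.35 CPM for 6 fibroblast markers, 1.78 to 2.16 against 2.22 to 3.20 CPM for 5 primitive endoderm markers, 1.83 to 1.89 against 2.36 to 2.79 CPM for 5 trophectoderm markers, 0.728 to 1.54 against 3.11 to 4.07 CPM for 4 mesoderm markers and 80.4 to 86.7 against 58.4 to 60.8 CPM for 4 neural markers. In WT, 1 fibroblast and 1 trophectoderm marker were at 0 in every library. The sums do not stand for every gene of a list. Col1a1, Col1a2, Col3a1, Dab2, Eomes, T and Neurod1 were called higher, beside 13.6% of all genes tested. Pax6 and Tubb3 were called lower, beside 11.7%. Not called were Thy1, Pdgfra, Elf5 and Gata4, with negative log2 fold changes, and Gata6, Gata3, Sox1 and Mixl1, with positive ones. The part of these shifts in any result below was not tested.

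The start sites of 4 hnRNP genes are shown, that of Hnrnpu because it alone passed the test, those of Hnrnpa1 and Hnrnpa2b1 because they are close paralogues and that of Hnrnpd because it holds a MYC-type E-box. Each line gives the 120 bases before the start site in RefSeq on build GRCm38.p6, 5′ to 3′ on the strand of the gene. Capitals mark matches on either strand to 5 motifs. The E-box was searched as CACGTG, the motif of ETS factors as CCGGAAG, the TATA motif as TATAAA, the GC box of SP1-like factors as GGGCGG and the box bound by NF-Y as CCAAT.
Hnrnpu, chr1:178337816-178337935, minus strand: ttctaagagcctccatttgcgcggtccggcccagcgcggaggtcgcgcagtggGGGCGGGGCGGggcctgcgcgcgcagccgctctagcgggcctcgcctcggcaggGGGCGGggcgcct
Hnrnpa1, chr15:103240277-103240396, plus strand: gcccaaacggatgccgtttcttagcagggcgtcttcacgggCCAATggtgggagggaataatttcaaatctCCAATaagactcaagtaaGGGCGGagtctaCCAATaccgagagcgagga
Hnrnpa2b1, chr6:51469895-51470014, minus strand: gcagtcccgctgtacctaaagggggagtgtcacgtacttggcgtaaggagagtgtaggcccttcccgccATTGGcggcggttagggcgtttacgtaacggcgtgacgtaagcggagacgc
Hnrnpd, chr5:99978939-99979058, minus strand: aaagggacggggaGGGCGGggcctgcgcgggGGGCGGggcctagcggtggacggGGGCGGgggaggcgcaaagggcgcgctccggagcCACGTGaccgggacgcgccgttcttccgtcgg

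The first run of capitals in Hnrnpu is a pair of GC boxes that overlap. In windows of 300 bases around the start sites of the 10 genes, where a gene can have several, a CCAAT box was found for 7 genes, a GC box for 6, an E-box for 3 (Hnrnpd, Hnrnpf and Hnrnpm), an ETS match for 2 (Hnrnpd and Hnrnpf) and a TATA match for 1 (Hnrnpm). Of all 32851 RefSeq windows of that length, 37.4% held a CCAAT box, 35.7% a GC box, 7.15% an E-box, 8.86% an ETS match and 13.6% a TATA match. These shares are of single windows, whereas a gene was counted if any of its windows matched, so they are not like measures. The window of Hnrnpu had 72.7% GC and that of Hnrnpa1 48.3%, beside a median of 52.7% over all windows. These matches are letters in a window and were not measured as binding.

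Hnrnpk also carries a second RNA. The hairpin of Mir7-1 lies in an intron of Hnrnpk on the same strand (chr13:58392779-58392886, minus strand). Its mature arms are shown with the seed, bases 2 to 8, in capitals.
mmu-miR-7a-5p: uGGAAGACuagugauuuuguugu
mmu-miR-7a-1-3p: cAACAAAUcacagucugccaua
The libraries do not measure the mature arms. Counts assigned to the Mir7-1 gene were at 1.14, 1.44 and 1.46 CPM in WT and at 0.925 to 1.68 CPM in Srrm2+/-, with overlapping groups (log2 fold change -0.08, edgeR adj. P-value 0.851).

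Most of the 10 hnRNP genes were measured at similar levels in WT and Srrm2+/-. Of the 10 genes, 0 were upregulated, 1 (Hnrnpu) was downregulated and 9 did not pass the test, beside 25.3% of all 18905 genes tested that were called, 13.6% higher and 11.7% lower. At an unadjusted p under 0.05 the same count of 1 gene was obtained. Among the 4713 tested genes at least as abundant as Hnrnpc, the lowest of the 10, 33.8% were called, 14.4% higher and 19.3% lower. The median of the absolute log2 fold change was 0.04 over the 10 genes, 0.10 over those 4713 genes and 0.19 over all genes tested. Signed log2 fold changes ran from -0.13 (Hnrnpu) to 0.21 (Hnrnpa2b1), with a median of -0.01, the median over all genes tested being -0.0025. In total RNA from a culture, fewer cells of a type and less RNA per cell cannot be told apart.

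**Figure D1:**
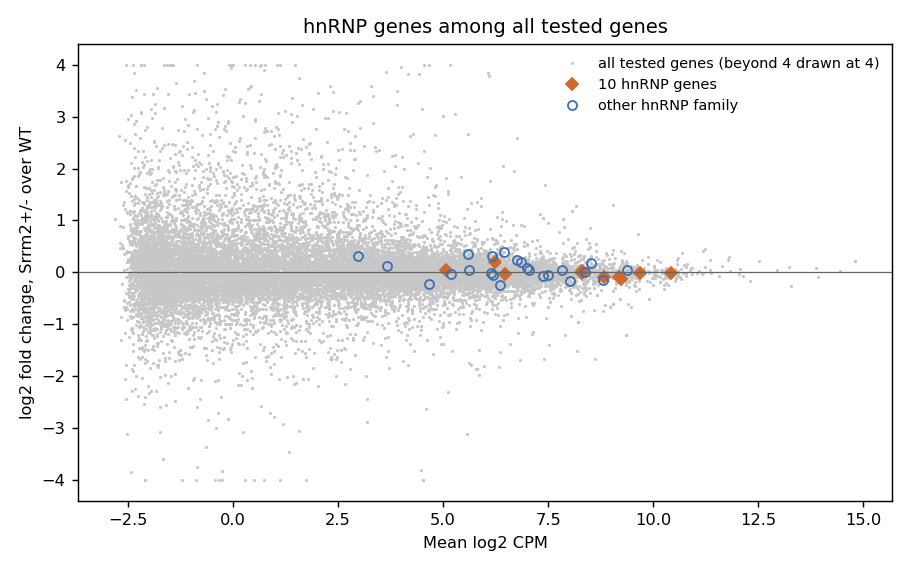
Log2 fold change of Srrm2+/- against WT for every tested gene, plotted against its mean log2 CPM. The 10 hnRNP genes and the other tested hnRNP and hnRNP-like genes are marked. The 10 hnRNP genes sit at the abundant end, close to 0, between -0.13 and 0.21. Srrm2, at -0.69, is drawn among all tested genes without a mark of its own.

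**Figure D2:**
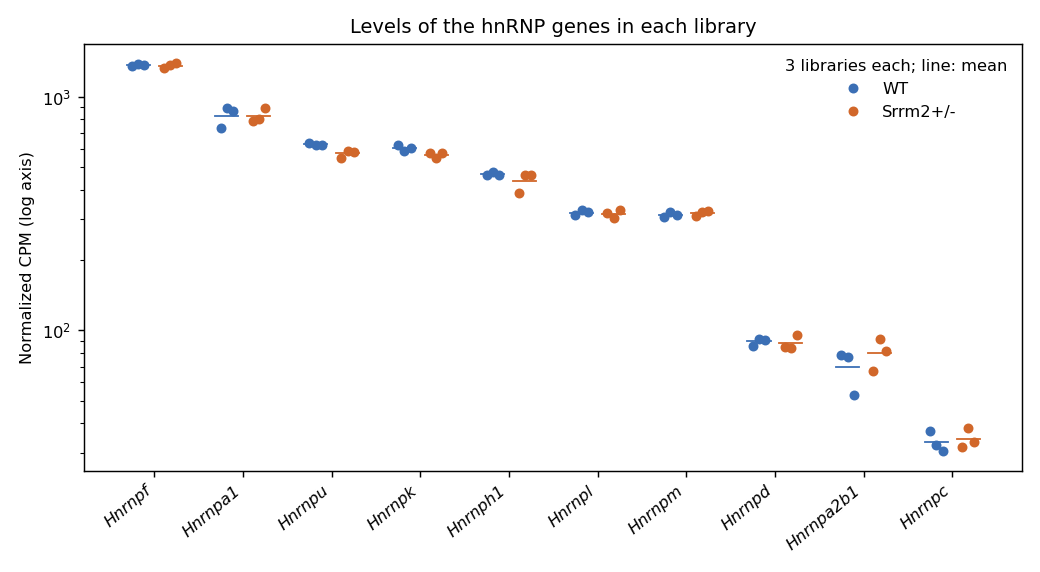
Normalized CPM of each hnRNP gene in the 3 WT and 3 Srrm2+/- libraries (log axis), where each point is 1 library. Hnrnpf is highest at 1322 to 1389 CPM, Hnrnpc is lowest at 30.4 to 38.4 CPM, and the genotypes do not overlap in Hnrnpk and Hnrnpu.

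Hnrnpu (ENSMUSG00000039630, chromosome 1, 178321108 to 178337797, minus strand) encodes hnRNP U, also called scaffold attachment factor A, which binds both RNA and chromatin and helps to hold the Xist RNA to the inactive X chromosome in female cells. Its levels were 636, 621 and 624 CPM in WT and 548, 586 and 581 CPM in Srrm2+/-. Every Srrm2+/- library was below every WT library. Mean levels were 627 ± 7.92 CPM against 572 ± 20.5 CPM (SD over 3 libraries). Hnrnpu was called downregulated at a fitted log2 fold change of -0.13, with SE 0.04, a 95% interval of -0.22 to -0.04 and an edgeR adj. P-value of 0.0416. In percent the change was -8.74%. This call was close to the threshold and was lost in 10 of 17 alternative analyses, including each of the 6 that left out a library, with adj. P-values of 0.00949 to 0.105 and log2 fold changes of -0.15 to -0.10 over the 17. Hnrnpu shares 804 exonic bases with Cox20 on the opposite strand, and Cox20 itself was at 6.34 to 9.43 CPM in the 6 libraries (edgeR adj. P-value 0.535).

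Hnrnpk (ENSMUSG00000021546, chromosome 13, 58391142 to 58403343, minus strand) encodes a protein with KH domains that binds cytidine-rich RNA and single-stranded DNA. It was measured at 623, 587 and 603 CPM in WT and at 577, 545 and 576 CPM in Srrm2+/-. The groups did not overlap, and Hnrnpk and Hnrnpu were the 2 of 10 genes in which every Srrm2+/- library was lower, beside 20% of all genes tested. In 0 of the 10 genes was every Srrm2+/- library higher, beside 21.4% of all genes tested, and in either direction the share over all genes was 41.4%. The log2 fold change of Hnrnpk was -0.09 (SE 0.04, 95% interval -0.19 to 0.0003), which did not pass the test (edgeR adj. P-value 0.139).

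The hnRNPs F and H1 bind runs of guanosine through RNA recognition motifs of an unusual kind. Hnrnpf (ENSMUSG00000042079, chromosome 6, 117900324 to 117925622, plus strand) had 1352, 1380 and 1370 CPM in WT and 1322, 1365 and 1389 CPM in Srrm2+/-. These libraries interleaved. The log2 fold change was -0.0092 (SE 0.04, edgeR adj. P-value 0.890), and its 95% interval spans -6.28% to 5.35%. Hnrnph1 (ENSMUSG00000007850, chromosome 11, 50376990 to 50386528, plus strand) had 461, 477 and 464 CPM in WT and 389, 463 and 461 CPM in Srrm2+/-. A single library, Srrm2+/- replicate 1, lay below the others, and the groups overlapped. The log2 fold change was -0.09 (SE 0.07, edgeR adj. P-value 0.347) and became -0.01 without that library.

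The A/B proteins shuttle between nucleus and cytoplasm, bind UAG-containing motifs and favour exon skipping. Hnrnpa1 (ENSMUSG00000046434, chromosome 15, 103240432 to 103246692, plus strand) was at 732, 896 and 865 CPM in WT and 785, 800 and 897 CPM in Srrm2+/-. The lowest value and 2 of the 3 highest came from WT, so the groups overlapped fully (log2 fold change -0.0064, SE 0.08, edgeR adj. P-value 0.966). The 95% interval of -12.3% to 13.0% shows the size of change that these libraries could not resolve. Hnrnpa2b1 (ENSMUSG00000004980, chromosome 6, 51460932 to 51469894, minus strand) gave 78.8, 76.7 and 53.1 CPM in WT and 66.8, 92.3 and 81.8 CPM in Srrm2+/-. WT replicate 3 was low, and its log2 fold change of 0.21 (SE 0.15, 95% interval -0.14 to 0.56, edgeR adj. P-value 0.382) became 0.05 without that library. It was the largest and the least certain of the 10 estimates.

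Hnrnpc (ENSMUSG00000060373, chromosome 14, 52073377 to 52104028, minus strand) encodes a protein that stays in the nucleus and binds uridine tracts. Its levels of 37.1, 32.3 and 30.4 CPM in WT and 31.6, 38.4 and 33.3 CPM in Srrm2+/- overlapped (log2 fold change 0.05, SE 0.09, edgeR adj. P-value 0.752). Hnrnpd (ENSMUSG00000000568, chromosome 5, 99955935 to 99978938, minus strand) encodes AUF1, which binds AU-rich elements and affects mRNA decay. It was at 85.7, 92.3 and 91.1 CPM in WT and 84.8, 83.9 and 95.7 CPM in Srrm2+/-. Both the lowest and the highest library of Hnrnpd were Srrm2+/- (log2 fold change -0.03, SE 0.06, edgeR adj. P-value 0.796).

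Hnrnpl (ENSMUSG00000015165, chromosome 7, 28808541 to 28822266, plus strand), whose protein binds CA repeats and CA-rich elements, was at 312, 326 and 320 CPM in WT and 317, 304 and 327 CPM in Srrm2+/-. The ranges overlapped (log2 fold change -0.02, SE 0.04, edgeR adj. P-value 0.806). Hnrnpm (ENSMUSG00000059208, chromosome 17, 33646233 to 33686860, minus strand), whose protein binds GU-rich RNA, was at 305, 321 and 311 CPM in WT and 309.5, 322 and 323 CPM in Srrm2+/- (log2 fold change 0.03, SE 0.04, edgeR adj. P-value 0.691). For Hnrnpl the 95% interval was -0.11 to 0.08 and for Hnrnpm -0.06 to 0.12 on the log2 scale.

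**Figure D3:**
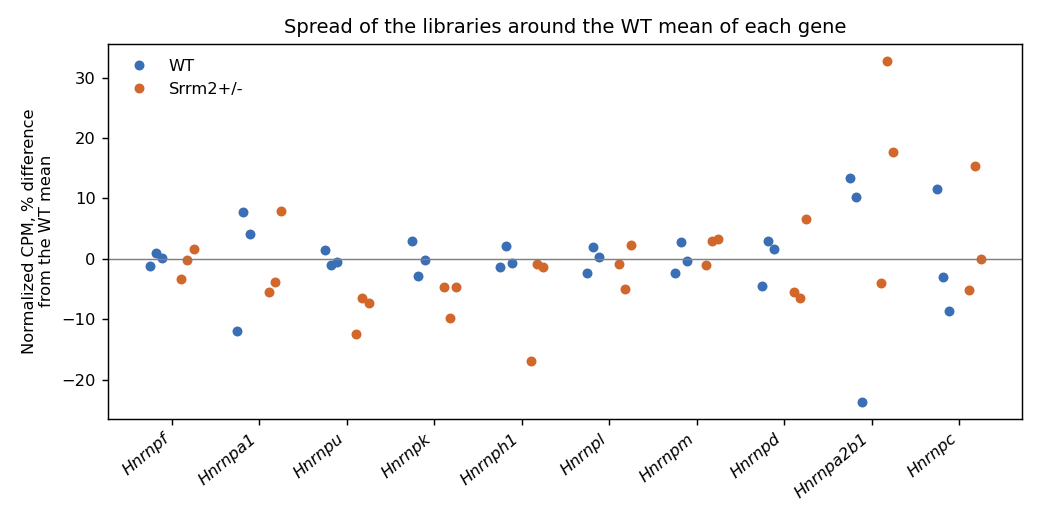
Difference of each library from the WT mean of the gene, in percent of normalized CPM, for the 10 hnRNP genes, where each point is 1 library. Hnrnpa2b1, Hnrnpc and Hnrnpa1 spread widely in both genotypes, whereas the WT libraries of Hnrnpf and Hnrnpu lie within a narrow band.

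The spread between replicates differed from gene to gene. In WT the coefficient of variation (SD over mean) was 1.01% for Hnrnpf, 1.26% for Hnrnpu and 1.81% for Hnrnph1, and it reached 10.4% for Hnrnpc, 10.5% for Hnrnpa1 and 20.5% for Hnrnpa2b1. In Srrm2+/- it was 2.46%, 3.59% and 9.68% for the first group and 10.3%, 7.34% and 15.9% for the second. The median over the 10 genes was 2.77% in WT and 5.50% in Srrm2+/-, while the genes at least as abundant as Hnrnpc had medians of 3.50% and 3.49%. Each value rests on 3 libraries and the difference between the genotypes was not tested.

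Levels between genes were compared per kilobase of annotated exon (CPM per kb). In WT the order was Hnrnpf at 449 ± 4.55, Hnrnpa1 at 263 ± 27.7, Hnrnpk at 93.5 ± 2.75, Hnrnph1 at 80.0 ± 1.45, Hnrnpu at 54.0 ± 0.683, Hnrnpl at 53.7 ± 1.16, Hnrnpm at 39.3 ± 1.02, Hnrnpd at 12.2 ± 0.480, Hnrnpa2b1 at 10.6 ± 2.17 and Hnrnpc at 7.70 ± 0.804 CPM per kb (SD over 3 libraries). Hnrnpu and Hnrnpl did not differ beyond their spread, nor did Hnrnpd and Hnrnpa2b1. The WT libraries of Hnrnpa2b1 and Hnrnpc overlapped on this scale, although the gap between their means was larger than either SD. In Srrm2+/- the means of Hnrnpl (53.0 CPM per kb) and Hnrnpu (49.3 CPM per kb) changed places, as did those of Hnrnpa2b1 (12.2 CPM per kb) and Hnrnpd (12.0 CPM per kb). The length used also sets the order. Per kilobase of the longest coding transcript, Hnrnpl (119 CPM per kb in WT) lay above Hnrnpu (82.0 CPM per kb) and Hnrnpa2b1 (40.2 CPM per kb) above Hnrnpd (13.2 CPM per kb), whereas Hnrnpf, Hnrnpa1, Hnrnpk and Hnrnph1 kept the first places. How transcript estimates were summed to genes is not given in the sources used here, nor is the strand setting. The levels of Hnrnpa2b1, Hnrnpc and Hnrnpd, in CPM as well as per length, lay well below those of the other 7 genes and may depend on these settings, which was not tested.

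On the scale of CPM per kb of exon, Hnrnpf and Hnrnpa1 made up most of the summed level of the 10 genes. Hnrnpf held 42.2% in WT and 42.7% in Srrm2+/-, and Hnrnpa1 held 24.8% and 25.1%. The share of Hnrnpk was 8.80% in WT and 8.38% in Srrm2+/-, that of Hnrnpu 5.09% and 4.72%, and that of Hnrnpa2b1 0.995% and 1.17%. Hnrnpf, Hnrnpa1, Hnrnpk and Hnrnph1 held the 4 largest shares, in that order, in both genotypes. The summed CPM of all 10 genes was 4622, 4808 and 4732 in WT and 4431, 4599 and 4764 in Srrm2+/-, so that the groups overlapped. The log2 ratio of the means was -0.04, and -0.01 without Srrm2+/- replicate 1. The 10 genes held 0.472% ± 0.004 of all estimated counts in WT and 0.459% ± 0.0217 in Srrm2+/- (SD over 3 libraries).

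Calls were also made among the other 24 hnRNP and hnRNP-like genes of a wider list. Of 23 that passed the filter, 6 were upregulated, 3 were downregulated and 14 did not pass the test, with a median absolute log2 fold change of 0.13. The shares over all genes tested were 13.6% higher and 11.7% lower. Whether they were called more often than the 10 genes was not tested. The upregulated genes were Pcbp1, Pcbp3, Pcbp4, Ptbp1, Ptbp2 and Hnrnpll. The downregulated genes were Hnrnpa3, Syncrip and Grsf1.

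The PCBP proteins are KH domain proteins related to hnRNP K. Pcbp4 rose from 75.0, 74.8 and 76.3 CPM in WT to 103, 95.7 and 99.6 CPM in Srrm2+/- (log2 fold change 0.40, SE 0.04, edgeR adj. P-value 0.000141). Pcbp1, an intronless gene with broad roles in mRNA stability and translation, rose from 42.2, 43.0 and 42.2 CPM to 56.5, 49.8 and 56.7 CPM (log2 fold change 0.36, SE 0.06, edgeR adj. P-value 0.0019). Pcbp3 rose from 7.32, 7.18 and 6.63 CPM to 8.96, 8.47 and 8.85 CPM (log2 fold change 0.31, SE 0.08, edgeR adj. P-value 0.0208). In each of these genes every Srrm2+/- library was above every WT library, beside 21.4% of all genes tested. The log2 fold change of Pcbp2 was 0.13, with an edgeR adj. P-value of 0.593.

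The PTB proteins bind pyrimidine tracts and repress exons, Ptbp1 in most cells and Ptbp2 in developing neurons. Ptbp2 rose from 64.3, 60.6 and 66.0 CPM in WT to 76.3, 84.0 and 78.3 CPM in Srrm2+/- (log2 fold change 0.32, SE 0.05, edgeR adj. P-value 0.0018). Ptbp1 rose from 316, 354 and 364 CPM to 395, 377 and 405 CPM, a smaller change close to the threshold (log2 fold change 0.19, SE 0.06, edgeR adj. P-value 0.0434). Hnrnpll, the paralogue of Hnrnpl known for CD45 splicing in lymphocytes, rose from 102, 96.1 and 98.5 CPM to 116, 116 and 117 CPM (log2 fold change 0.23, SE 0.04, edgeR adj. P-value 0.00231). In Ptbp1, Ptbp2 and Hnrnpll the genotypes were separated without overlap. Of the 23 tested genes of the wider list, every Srrm2+/- library was higher in 7, including Hnrnph2, which was not called. Every Srrm2+/- library was lower in 4, including Hnrnpr, which was not called. Over all genes tested these shares were 21.4% higher and 20% lower, 41.4% in either direction. Ptbp3, another PTB gene, was not called (log2 fold change -0.06, edgeR adj. P-value 0.451), and its groups overlapped.

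Among the downregulated genes, Hnrnpa3, an A/B family member, fell from 279, 278 and 265 CPM in WT to 242, 243 and 248 CPM in Srrm2+/- (log2 fold change -0.16, SE 0.04, edgeR adj. P-value 0.0132). Syncrip, which encodes hnRNP Q, fell from 459, 471 and 475 CPM to 409, 427 and 438 CPM (log2 fold change -0.14, SE 0.04, edgeR adj. P-value 0.0324). Grsf1, whose protein binds G-rich sequences and acts in mitochondrial RNA granules, fell from 93.3, 87.3 and 87.3 CPM to 77.1, 71.9 and 78.1 CPM (log2 fold change -0.24, SE 0.05, edgeR adj. P-value 0.00616). The changes of Hnrnpll, Ptbp2, Pcbp1, Pcbp4 and Grsf1 were called in all 17 alternative analyses, whereas Hnrnpa3 was called in 14, Pcbp3 in 13, Syncrip in 12 and Ptbp1 in 10.

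**Figure D4:**
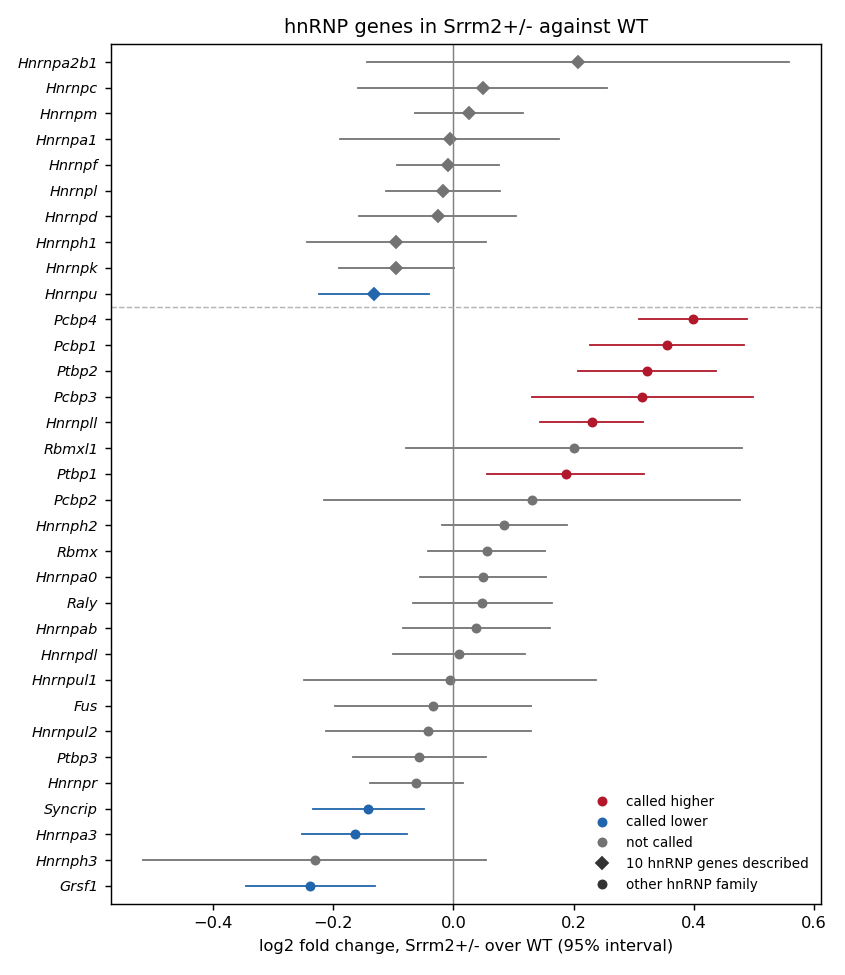
Log2 fold change of Srrm2+/- against WT with its 95% interval for the 10 hnRNP genes and the 23 tested genes of the wider list, with genes called at an edgeR adj. P-value under 0.05 marked. Hnrnpu is the called gene among the 10, and the called genes of the wider list run from Grsf1 at -0.24 to Pcbp4 at 0.40.

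Among 12 RNA-binding proteins that associate with hnRNPs, 1 was upregulated, 1 was downregulated and 10 did not pass the test, beside 25.3% of all genes tested that were called. Khdrbs1, which encodes the splicing regulator Sam68, rose to 88.6 ± 3.48 CPM in Srrm2+/- from 68.0 ± 3.22 CPM in WT (log2 fold change 0.38, SE 0.05, edgeR adj. P-value 0.000546). Sfpq, a paraspeckle protein and splicing factor, fell to 270.0 ± 9.18 CPM from 302 ± 5.05 CPM (log2 fold change -0.16, SE 0.04, edgeR adj. P-value 0.0180). Of 6 measured genes for nuclear import and modification of hnRNPs, 1 was downregulated and 5 did not pass the test. That gene was Mknk1, a kinase that phosphorylates eIF4E and hnRNP A1, which fell to 8.72 ± 0.291 CPM from 12.5 ± 1.52 CPM (log2 fold change -0.52, SE 0.09, edgeR adj. P-value 0.00415). Errors here are SDs of 3 libraries. Prmt1 was not analysed here. Of 4 genes of the MYC network, 1 was called, beside 25.3% of all genes tested. That gene, Myc, rose from 2.87, 3.70 and 3.85 CPM to 9.64, 9.16 and 10.5 CPM (log2 fold change 1.49, SE 0.13, edgeR adj. P-value 5.42e-05). Mycn, Mycl and Max did not pass the test. Mycn lay far above Myc in every library. Its WT values were 111.2, 111.7 and 122.8 CPM, and its Srrm2+/- values, which overlapped with them, were 131.1, 115.5 and 129 CPM. The log2 fold change of Mycn was 0.12 (SE 0.06, edgeR adj. P-value 0.185). MYC is known in other cells as an activator of Ptbp1, Hnrnpa1 and Hnrnpa2b1. Of these, Ptbp1 was called higher here, and Hnrnpa1 and Hnrnpa2b1 were not called. A link of any of them to Myc was not tested.

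Paralogous hnRNPs can bind like sequences, and the balance between them was followed as the log2 ratio of their counts within each library, a measure that does not depend on library scaling. For 3 libraries against 3, the exact permutation test cannot give a p below 0.1, so that no pair could pass a threshold of 0.05. The ratio of Hnrnpl to Hnrnpll was 1.61, 1.76 and 1.70 in WT and 1.45, 1.39 and 1.49 in Srrm2+/-. The libraries of the groups did not overlap, and the difference was -0.25 (SE 0.05, two-sided exact permutation p = 0.1, adjusted 0.5 over 10 pairs). For Hnrnph1 to Hnrnph2 the log2 ratio was 1.97, 1.93 and 1.89 in WT and 1.60, 1.88 and 1.75 in Srrm2+/-. Here too the groups were apart, though narrowly, with a difference of -0.18 (SE 0.08, two-sided exact permutation p = 0.1, adjusted 0.5). The former ratio moved with the rise of Hnrnpll, since Hnrnpl itself was at -0.02, and for the latter neither gene was called (log2 fold change -0.09 for Hnrnph1 and 0.09 for Hnrnph2).

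In the other 8 pairs the groups overlapped. The difference in log2 ratio was -0.22 (SE 0.27) for Hnrnpa1 to Hnrnpa2b1, and -0.0057 without WT replicate 3. It was 0.09 (SE 0.07) for Hnrnpf to Hnrnph1, -0.04 for Hnrnpd to Hnrnpdl, -0.06 for Hnrnpd to Hnrnpab and -0.20 for Hnrnpk to Pcbp2. For Hnrnpu it was -0.14 against Hnrnpul1 and -0.09 against Hnrnpul2, whose own log2 fold changes were -0.0051 and -0.04. The ratio of Hnrnpc to Raly differed by 0.00069.

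**Figure D5:**
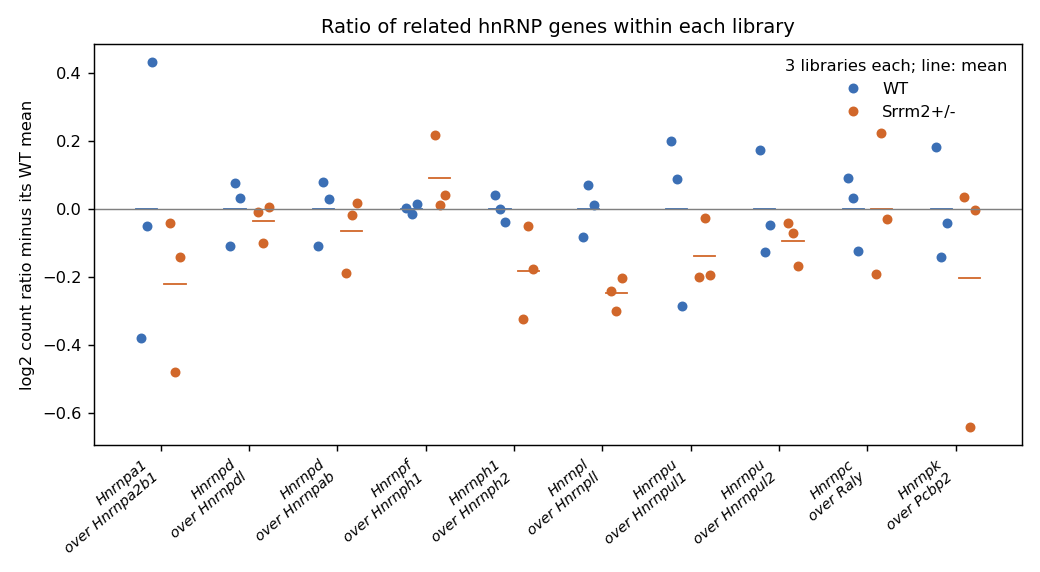
Log2 ratio of the counts of paralogue pairs in each library minus the WT mean of the pair, with WT and Srrm2+/- side by side and 1 point per library. The pairs Hnrnpl to Hnrnpll and Hnrnph1 to Hnrnph2 lie lower in every Srrm2+/- library, and the others overlap.

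Several of these genes share sequence with other loci, where estimated counts can be divided. Of the 31-base words in the transcripts of Hnrnpf, 66.2% occurred in other genes, as did 29.9% for Hnrnpa1, 21.1% for Hnrnpk, 14% for Hnrnpm and 13.7% for Hnrnpc. In the other 5 genes the share was smaller, down to 2.26% for Hnrnpl. Hnrnpm shares exonic sequence with March2 on the same strand. The pseudogene Gm10052, with at least 90% of its words in Hnrnpa1, was at 29.3, 68.9 and 53.8 CPM in WT and 32.6, 29.4 and 42.4 CPM in Srrm2+/- (log2 fold change -0.54, SE 0.26, edgeR adj. P-value 0.178). Its WT libraries spread widely and overlapped with those of Srrm2+/-. With its counts added to Hnrnpa1, the log2 fold change of Hnrnpa1 was -0.03 (edgeR adj. P-value 0.835), so that the estimate stayed near 0.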

How the data were processed

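Total RNA of mESCs was sequenced paired-end from stranded libraries, 3 WT and 3 Srrm2+/-, grouped by sample titles. The deposited table holds estimated counts for each gene, without normalization, which the authors made by pseudoalignment with Kallisto 0.46.1 to GENCODE M24 (mm10). The sources used here do not give the strand setting or the way transcripts were summed. Reads that fit several transcripts are divided among them, so genes with shared sequence can exchange counts.

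Estimated counts were rounded. Genes past filterByExpr (minimum count 10, minimum total 15) were tested in R 4.3.3 with edgeR 4.0.16 (TMM, quasi-likelihood, genotype alone, Benjamini-Hochberg over 18905 genes). P-values measure the spread between these cultures. Symbols, positions and 31-base words came from GENCODE M21 (42156 identifiers matched) and sequences from RefSeq. Paralogue ratios used a two-sided exact permutation test. Alternatives included limma 3.58.1, DESeq2 1.42.0, other scalings and filters, and each library left out. No spike-in rows were found (0), so scaling to them was not run. Scripts were tested on simulated data.

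The hnRNP genes, the lists and the pairs were chosen with earlier results of these data known. Genes named were Srrm2, the 10 hnRNP genes, their paralogue partners, near-identical copies and every called gene of the wider lists.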

Additional observations from a re-analysis of the deposited data

How the results depend on the processing

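Hnrnpu was not called under upper quartile normalization (edgeR adj. P-value 0.0615), a filter of at least 1 count (0.0606), an adj. P-value under 0.01, or without any 1 library, so that 0 of the 10 genes were called lower there. No gene of the 10 was called higher under any alternative. The replicate numbers did not pair the samples (correlations of deviations of -0.03 in all 3 pairs). With the replicate number as a block, 0 of the 10 genes were called lower (Hnrnpu, edgeR adj. P-value 0.0868), and 5 genes of the wider list were called higher and 3 lower. At an adj. P-value under 0.01, Hnrnpll, Ptbp2, Pcbp1 and Pcbp4 of the wider list were called higher and 1 gene, Grsf1, lower. Among all genes tested, 1574 were then called higher and 1205 lower. With 1 library left out, 4 to 5 genes of the wider list were called higher and 1 to 4 lower. The share of all genes called with the block or with a library left out is not given here. These counts therefore do not show whether the list kept its calls better or worse than other genes. The log2 ratio of summed CPM with 1 library left out was -0.064 to -0.012.

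Signs turned for estimates near 0 and also for 2 larger ones when 1 library was left out. With all libraries these were 0.13 for Pcbp2 and -0.20 for the log2 ratio of Hnrnpk to Pcbp2. Hnrnpa1 was at 0.00027 with a filter of at least 1 CPM. Hnrnpul1 was at 0.0085 with limma voom, 0.00028 with the filter of at least 1 count, 0.0014 with that of at least 1 CPM and 0.0072 with the block. With 1 library left out, log2 fold changes ranged from -0.090 to 0.053 for Hnrnpa1, -0.036 to 0.14 for Hnrnpc, -0.087 to 0.011 for Hnrnpd, -0.024 to 0.011 for Hnrnpf, -0.042 to 0.012 for Hnrnpl, -0.031 to 0.050 for Hnrnpdl, -0.092 to 0.15 for Hnrnpul1, -0.11 to 0.018 for Hnrnpul2 and -0.086 to 0.24 for Pcbp2. Differences in log2 ratio ranged from -0.090 to 0.0018 for Hnrnpd to Hnrnpdl, -0.11 to 0.096 for Hnrnpc to Raly and -0.32 to 0.016 for Hnrnpk to Pcbp2, the last turned by leaving out Srrm2+/- replicate 2. The causes of these turns were not tested. Adding pseudogenes that share at least 50% of their words, chosen after seeing the data, changed no call among the 10 genes. Precision is lowest for Hnrnpa2b1, Hnrnpc and Hnrnpa1, and 3 libraries per genotype limit every interval.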
